A study of Pimephales promelas and Coturnix japonica and Xenopus laevis with 724 samples.

Results

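The 150 identifiers described here were the most embryo-enriched of 11900 that could be scored in the control libraries of 8 benzo[a]pyrene tables, from embryos of 4 species and livers of 3 species; 42072 identifiers occurred in any of the 39 tables with labelled controls. For every identifier the mean CPM (the usual counts-per-million unit, a count divided by its library's total) was taken over the control libraries of each of those tables. The score was the log2 of 1 plus the lowest of the 4 embryo means, minus the log2 of 1 plus the highest of the 4 liver means, and the 150 highest scores made up the set. The values that chose the members are therefore the benzo[a]pyrene control libraries, and levels in them are given as a description.

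RNA sequencing was done on embryo samples of 2 fish (fathead minnow, rainbow trout) and 2 frogs (northern leopard frog, African clawed frog), and on liver samples of double-crested cormorant, Japanese quail and adult fathead minnow, after exposure to 1 of 8 chemicals. The chemicals carry the label codes bap (benzo[a]pyrene), cpf (chlorpyrifos), ee2 (ethinylestradiol), flx (fluoxetine), hbcd (hexabromocyclododecane), pb (lead), seme (selenomethionine) and tb (trenbolone). Exposed libraries are labelled by level, mostly MED and HIGH and in some tables LOW or a number, and every control library is labelled dmso and CTRL, also in the lead and selenomethionine tables. Lifestage is labelled els, written here as early-life, for the embryos, the cormorant livers and part of the quail livers, and adult for the other quail livers and the minnow livers. The labels give no concentration, exposure time, age, sex, strain or number of pooled animals. They also do not say that libraries came from separate animals or pools, so p-values within a table measure the spread between these libraries. In the minnow embryo-liver and quail stage tests they measure the spread between sums of controls, 1 sum per table. The 39 tables hold 624 libraries, 396 of embryo and 228 of liver, of which 193 are controls (118 embryo, 75 liver). Library totals ran between 4066220 and 69838406 counts, with a median of 15493969.

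A whole embryo contains dividing and differentiating cells of every developing tissue, such as muscle, nerve, skin, cartilage and eye, while liver is dominated by hepatocytes that make plasma proteins and carry out metabolism. Transcripts from non-hepatic tissues and from growing or patterning cells are therefore abundant in an embryo library and scarce in a liver library. In bulk RNA of this kind, fewer cells of a type and less RNA per cell cannot be told apart. The identifiers are the files' own codes. None of them matched the reference gene table (0 of 42072), so no gene name, role, sequence or marker gene is given for any member, and the tissue labels could not be checked against marker genes.

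Scores of the members lay between 2.998 and 10.14, with a median of 3.76, while the median of all 11900 scored identifiers was -1.39 and 2142 of them scored above 0. The identifier s2f_0002032002 ranked first (score 10.14), s2f_0001145003 next (9.85) and s2f_0000677001 after it (9.47). The last member, s2f_0000518004, scored 2.998 and the first identifier outside the set, s2f_0008942002, scored 2.997, so nothing in the scores separates the set from what follows it. The lowest embryo mean was the one in trout for 52 members, in leopard frog for 37, in minnow for 33 and in clawed frog for 28. The highest liver mean was the one in cormorant for 71 members, in adult minnow for 45, in early-life quail for 25 and in adult quail for 9. Of the 150 members, 58 stayed below 1 CPM in all 4 liver means and 40 reached at least 100 CPM in all 4 embryo means.

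Identifiers with the same leading 7 digits were common in the set: 41 members shared them with another member, and the 150 members fell into 126 leading groups. The group s2f_0000014 held 6 members out of 29 scored identifiers, s2f_0000677 held 3 of 5 and s2f_0000917 held 3 of 4. Leading groups with members also held many identifiers that did not score above 0. The 614 scored identifiers that share a leading group with a member without being one had a median score of -0.79, and 32.4% of them scored above 0, against 18% of all scored identifiers. Leaving out the members removed the highest scores of these groups, so the values are a description and not a test. The files do not say what the leading digits stand for.

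In control libraries outside benzo[a]pyrene, which the rule did not use, the members again stood high in embryos and low in livers. The score recomputed from those controls was above 0 for all 150 members, with a range of 1.27 to 10.57 and a median of 3.94, and above 2 for 145. Over all 11900 identifiers, 18.6% scored above 0 in the same controls and 389 scored above 2. The lowest of these scores among the members belonged to s2f_0002431002 (1.27), which averaged 20.6 CPM in minnow embryos and 7.92 CPM in adult minnow livers, and which is named after its values were seen. When the set was chosen again from these other controls, 113 of the 150 members were chosen a second time.

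The median member had 75.1 CPM in minnow embryos, 64.0 in leopard frog embryos, 68.1 in trout embryos and 87.5 in clawed frog embryos, as the mean over control tables outside benzo[a]pyrene. In livers the median member had 0.359 CPM in cormorant, 0.352 in early-life quail, 0.167 in adult quail and 0.475 in adult minnow. The median over all scored identifiers ran from 13.9 to 17.3 CPM in the embryos and from 6.27 to 14.4 CPM in the livers, so the members were above the typical identifier in the embryos and far below it in the livers.

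**Figure D1:**
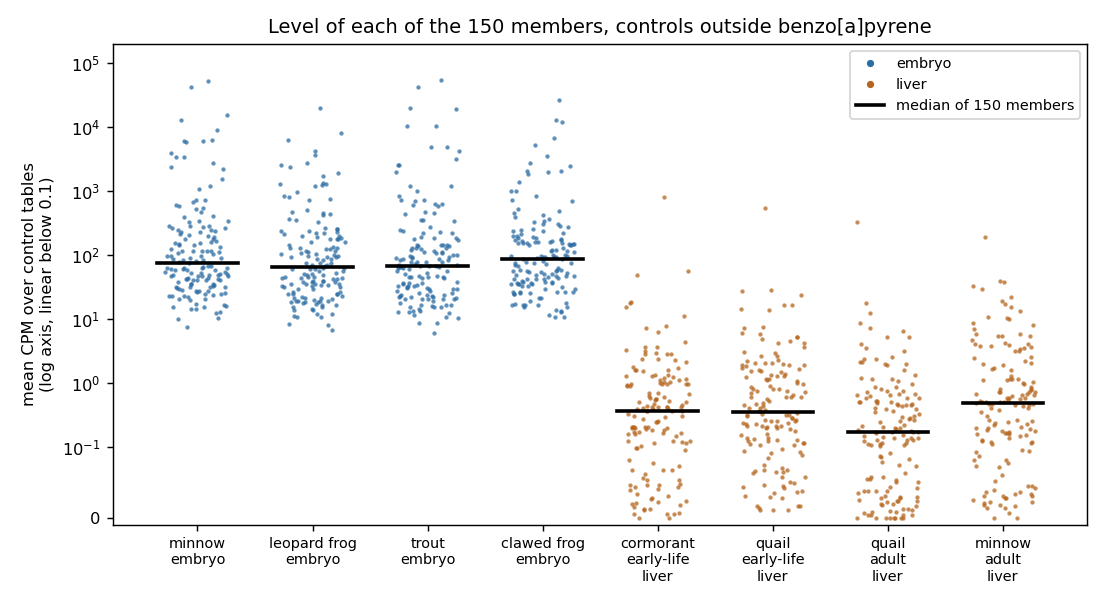
Mean CPM of each of the 150 members (points) over control tables outside benzo[a]pyrene, on a log axis that is linear below 0.1 CPM, for 4 kinds of embryo (blue) and 4 kinds of liver (brown); black lines are medians of the 150 members. Median members lie between 64.0 and 87.5 CPM in embryos and between 0.167 and 0.475 CPM in livers.

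The highest-ranked member, s2f_0002032002, had 2761 to 5457 CPM over 34 minnow embryo controls (median 3721), 2017 to 5437 CPM over 15 leopard frog controls (median 4486), 3359 to 6442 CPM over 11 trout controls (median 4573) and 1520 to 6796 CPM over 36 clawed frog controls (median 5448). Its highest value in any of the 55 liver controls was 4.79 CPM, in early-life quail. The 4 embryo ranges overlap one another and none comes near a liver value.

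The second-ranked member, s2f_0001145003, had 12664 to 24248 CPM in trout embryos, 8563 to 17122 in minnow, 3804 to 10933 in leopard frog and 2509 to 15085 in clawed frog. Its highest liver value was 18.2 CPM, again in early-life quail. Trout and leopard frog embryos did not overlap for this member, whereas each overlapped minnow and clawed frog. The member ranked after it, s2f_0000677001, ranged from 1311 to 13865 CPM over the embryo controls of all 4 species and reached at most 37.0 CPM in livers, in adult minnow.

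At the edge of the set the levels were far lower. The last member, s2f_0000518004, had 104 to 812 CPM in minnow embryos but 7.70 to 31.0 CPM in leopard frog, 5.49 to 23.0 CPM in trout and 10.6 to 315 CPM in clawed frog, and at most 0.57 CPM in livers. Its clawed frog controls had 51.3 to 315 CPM in the ethinylestradiol table and at most 27.3 CPM in the other tables. The next identifier, s2f_0008942002, had 28.8 to 71.3 CPM in minnow, 4.83 to 12.4 in leopard frog, 13.4 to 26.8 in trout and 13.3 to 34.3 in clawed frog, and at most 1.18 CPM in livers. Both were higher in minnow embryos than in leopard frog and trout embryos without overlap.

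The spread between the 4 embryo species differed widely from member to member. The ratio of the highest to the lowest species mean had a median of 3.03 over the members, was under 3 for 73 of them and over 10 for 12. Among the 5690 scored identifiers with more than 7 CPM in every embryo species the median ratio was 2.63. The smallest ratio, 1.15, was that of s2f_0000116017, with 20.5 CPM in minnow, 18.6 in leopard frog, 20.4 in trout and 17.8 in clawed frog. The largest, 158, was that of s2f_0000014046, with 52483 CPM in minnow and 54310 CPM in trout but 1327 CPM in leopard frog and 344 CPM in clawed frog; both identifiers are named after their values were seen. The member was high in both fish and much lower in both frogs. Of the 4 species, minnow was highest for 49 members, clawed frog for 37, trout for 36 and leopard frog for 28.

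Over the 150 members, levels in pairs of embryo species had Spearman correlations between 0.76 (minnow and leopard frog) and 0.87 (leopard frog and clawed frog). Over all scored identifiers the 2 fish had 0.85 and the 2 frogs 0.81, while each fish-frog pair had between 0.53 and 0.56. The members of a pair of species share the rule's requirement of a high level in every embryo species, so these values are a description across identifiers and not across samples.

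A few members held most of the members' counts. The 10 most abundant members made up 82.2% of the members' summed CPM in minnow embryos, 70.3% in leopard frog, 86.7% in trout and 76.3% in clawed frog, and the single most abundant one 26.1% to 27.2%. Across the 4 species 17 members were among the 10 most abundant anywhere, and 6 were so in all 4. The most abundant member in both frogs was s2f_0000043007, with 26496 CPM in clawed frog and 19913 CPM in leopard frog. It was also the member with the highest liver level, at 801 CPM in cormorant, 537 in early-life quail, 322 in adult quail and 194 in adult minnow, and is named after its values were seen.

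Together the members held 3.55% to 26.0% of all counts in the 96 embryo control libraries outside benzo[a]pyrene (median 12.4%) and 0.0220% to 0.175% in the 55 liver control libraries (median 0.0719%). The lowest embryo library thus held a larger share than the highest liver library. Minnow embryos had 16.6% to 23.8% and trout embryos 13.6% to 26.0%. Leopard frog embryos had 5.03% to 9.29% and clawed frog embryos 3.55% to 12.5%. Outside benzo[a]pyrene, the share in every frog control library was thus below that in every fish embryo control library. This order did not hold with the benzo[a]pyrene controls included, where the lowest trout library held 9.90%. Species, sequencing experiment and embryo stage cannot be told apart in this order.

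Tables of the same species also differed. In trout the median share of the controls was 12% in the benzo[a]pyrene table, 15.7% in the selenomethionine table, 20.5% in the fluoxetine table and 24.2% in the ethinylestradiol table. In clawed frog it was 5.87% in the ethinylestradiol table and 8.26% to 12.4% in the other 7 tables. All these libraries are labelled alike as embryo controls. Each exposed library below is therefore compared with controls of its own table.

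**Figure D2:**
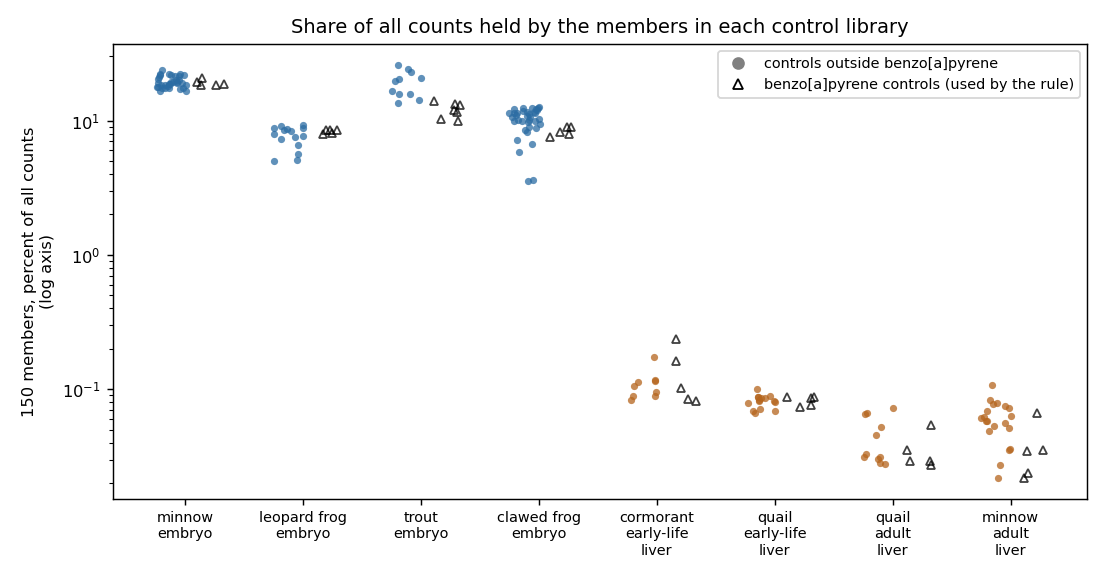
Percent of all counts held by the 150 members in each control library, on a log axis, by species and tissue; filled points are controls outside benzo[a]pyrene and open triangles are the benzo[a]pyrene controls that the rule used. Embryo libraries outside benzo[a]pyrene lie between 3.55% and 26.0% and liver libraries between 0.0220% and 0.175%.

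For 118 of the 150 members, every 1 of the 96 embryo control libraries was above every 1 of the 55 liver control libraries; the same held for 511 of 11900 scored identifiers (4.29%). Without fathead minnow the count was 141 for the members and 1128 for all scored identifiers; without any other species it was between 119 and 129 for the members and between 623 and 726 for all. Within embryos the spread of the members stands beside that of other identifiers at or above the lowest member's level. The median coefficient of variation among control libraries of a table was 13.3% for the members and 12% for comparable identifiers in minnow, 16.6% and 11.8% in leopard frog, 10.9% and 8.89% in trout, and 13.3% and 11.1% in clawed frog. In livers, where most members had few counts, it was between 63.4% and 96.3%.

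Minnow was the only species with both embryo and liver libraries, so there embryos could be tested against adult livers within a species. The test used counts summed over the controls of each table (7 embryo tables against 4 adult liver tables, none of them benzo[a]pyrene). Tissue, life stage and sequencing experiment cannot be told apart in it. By edgeR's quasi-likelihood test with Benjamini-Hochberg adjustment, 147 members were higher in minnow embryos than in adult minnow livers at an adjusted p below 0.05 and 0 were lower. Of the 19217 identifiers tested, 41.4% were higher and 33% lower in embryos. The median difference was 6.84 on the log2 scale over the members and 0.16 over all identifiers tested, and 129 of the called members differed by more than 3. All 150 members were tested because their embryo level carried them past the filter on low counts, and the benzo[a]pyrene controls of the same tissues had chosen them, so the count describes how far the rule's direction extends to other controls.

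The 3 members that missed the threshold were s2f_0000051021 (log2 difference 0.66, SE 0.383, adjusted p 0.135 by edgeR), s2f_0001408002 (0.48, SE 0.223, adjusted p 0.0703) and s2f_0002431002 (0.29, SE 0.449, adjusted p 0.572). Of these, s2f_0001408002 had 63.0 to 156 CPM in minnow embryo controls outside benzo[a]pyrene and 6.20 to 75.2 CPM in adult minnow liver controls outside benzo[a]pyrene, against 3.75 to 12.9 CPM in the adult liver controls of the benzo[a]pyrene table. The liver controls of the other tables reached into the embryo range. Scaling by library totals in place of trimmed means of M values (TMM, the scaling used throughout) moved the median of all identifiers to 1.38 and put all 150 members higher in embryos, with a member median of 8.06.

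The other contrast that the rule did not use was that of the 2 quail stages, both of which had to be low. All 10 libraries of the quail lead table labelled early-life held the same counts, over 18350 identifiers, as the same-titled libraries of the lead table labelled adult. The controls of that adult table correlated with those of the other adult tables at r = 0.986 and 0.992 over identifiers (log2 of 1 plus CPM) and with those of early-life tables at 0.913 to 0.916. The lead table was used as adult, and the median difference is given with and without it. In the comparison of 3 early-life with 2 adult control sums, 114 members could be tested and 36 had too few counts. By edgeR's quasi-likelihood test 31 members were higher and 16 lower in early-life than in adult livers, next to 31.8% higher and 30.3% lower among the 14839 identifiers tested. The members' median difference was 0.44 on the log2 scale and that of all identifiers 0.04. The difference of the set from these shares was not tested. A member near 0 in 1 stage could pass the filter on low counts through the stage where it was high. The calls and their direction were therefore partly set by the filter and are not read as a result. Leaving out either adult table leaves 1 adult sum, which gives no spread within adults. Only median differences from these fits are therefore given here. Their counts of calls appear among the processing alternatives and are not read as results. Without the lead table the median was 0.50 over the members and 0.08 over all identifiers. Without the adult ethinylestradiol table these were 0.59 and 0.09. With library totals in place of TMM 51 were higher and 7 lower, with all identifiers at 8723 higher and 2248 lower and their median at 0.66.

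Levels were low in both quail stages for the median member, with 0.352 CPM in early-life and 0.167 CPM in adult livers in controls outside benzo[a]pyrene. The identifier s2f_0010127001 had 0.394 to 2.40 CPM in the 15 early-life livers and 0 to 0.187 CPM in the 11 adult livers, without overlap (log2 difference 5.28, SE 0.488, adjusted p 0.00018 by edgeR). In the other direction, s2f_0000917003 was called lower in early-life livers, where it had at most 0.346 CPM. Its adult level rested on 3 of 11 libraries, with 16.6, 28.4 and 9.90 CPM, and the other 8 had at most 0.421 CPM, so the stages overlapped. These identifiers were picked after their values were seen. The filter could have admitted each through the stage where it was higher, so these calls are given as a description.

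Of the members called in exposed embryos, most were called in minnow embryos at the HIGH level of lead, with 42 members called there. Over 45 comparisons of a level with its controls in the 20 embryo tables outside benzo[a]pyrene, 59 of the 150 members were called at least once and 91 never; 2 members were called in 2 tables and 0 in more. All 150 members were tested in every embryo table, but the numbered levels of minnow ethinylestradiol and fluoxetine were left out of the fits. Among the 9856 identifiers tested in all 45 comparisons, 1956 (19.8%) were called at least once; the difference of the set from this share was not tested. The median log2 fold change of the members lay between -0.24 and 0.13 in these 45 comparisons and within 0.1 of 0 in 40 of them, against -0.02 to 0.02 for the median of all identifiers. The lowest, -0.24, was that of clawed frog embryos at the MED level of fluoxetine, where 19 of 150 members were positive and 0 were called. By edgeR 34 members had an unadjusted p below 0.05 there. The matching shares over all identifiers are not given here, so these counts are not read as results about the members.

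In minnow embryos at the HIGH level of lead, 38 members fell and 4 rose by edgeR's quasi-likelihood test at an adjusted p below 0.05. Among all 17479 identifiers 5.91% fell and 6.69% rose, and the difference of the set from this background was not tested. The median level in minnow embryos was 75.1 CPM over the members and 17.2 CPM over all scored identifiers, and the part of this higher level in the share called was not tested. The falls were small, from -0.23 to -0.66 on the log2 scale with a median of -0.40, close to the median of -0.37 over all 1033 identifiers that fell. The rises were between 0.41 and 0.76. Counting members without regard to the test, 117 of 150 had a negative fold change, with a median of -0.16 against 0.00 for all identifiers. At the MED level 0 members were called by edgeR, 14 had an unadjusted p below 0.05, and 108 were negative with a median of -0.08. The matching shares over all identifiers at MED are not given here. Of the 38 that fell at HIGH, 36 were also negative at MED, where their median was -0.10; both levels share their controls.

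The same-lettered minnow lead libraries deviated together (correlations of 0.227 to 0.522 in 5 pairs), and with the letter as a replicate block the HIGH comparison called 58 members lower and 9 higher. The share of all counts held by the members was 16.6% to 19.0% in the controls, 14.6% to 18.4% at MED and 14.3% to 17.6% at HIGH, and the 3 ranges overlap. The 38 members that fell came from 34 leading groups.

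The largest fall was that of s2f_0000011018, with 43.4, 55.7, 42.6, 48.5 and 48.8 CPM in the controls, 40.7, 58.8, 34.6, 38.8 and 34.7 CPM at MED and 28.9, 36.0, 28.8, 29.9 and 29.9 CPM at HIGH. All HIGH libraries lay below all controls, and MED overlapped both groups. The log2 fold change at HIGH was -0.66 (SE 0.132, adjusted p 0.00451 by edgeR). The second member named here, s2f_0001546002, had 30.4 to 38.3 CPM at HIGH against 41.9 to 56.9 CPM in the controls, again without overlap (log2 fold change -0.58, SE 0.109, adjusted p 0.0029 by edgeR).

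Among the members that rose, s2f_0000987001 had 84.8 to 114 CPM in the controls, 110.3 to 146 CPM at MED and 123 to 211 CPM at HIGH, with HIGH above every control (log2 fold change at HIGH 0.76, SE 0.125, adjusted p 0.0012 by edgeR). For s2f_0000164016 the HIGH libraries had 19.7 to 22.2 CPM against 11.4 to 17.7 CPM in the controls (0.64, SE 0.138, adjusted p 0.00683). The 4 members named for lead in minnow were picked after their values were seen, as those with the largest falls and rises.

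**Figure D3:**
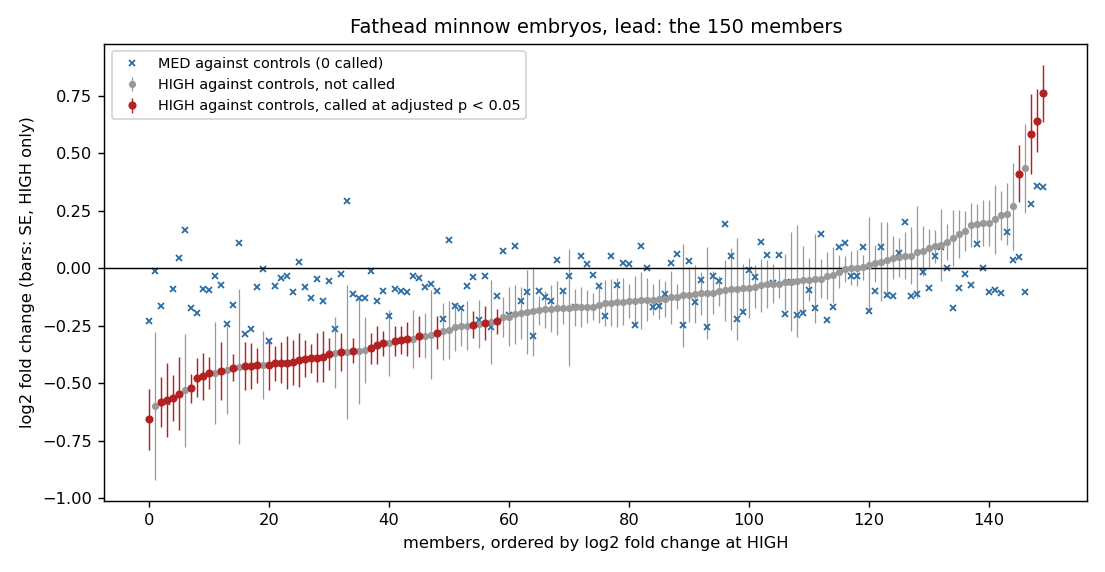
Log2 fold change of each of the 150 members against controls in minnow embryos exposed to lead, ordered by the value at HIGH (circles with SE; red, called at an adjusted p below 0.05; grey, not called) with the MED value as a blue cross. At HIGH 38 members fell and 4 rose, and 117 of 150 circles lie below 0.

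In clawed frog embryos at the HIGH level of lead 4 members fell and 1 rose, next to 0.251% lower and 1.57% higher among 15527 identifiers. Of the 38 members that fell in minnow at HIGH, 29 were negative in clawed frog at HIGH and 0 were called lower there; of all 713 identifiers that fell in minnow and were tested in clawed frog, 70.7% were negative. With library totals in place of TMM 2 members fell and 0 rose. The count depended on single libraries, from 1 to 6 lower and 0 to 1 higher when 1 library was left out.

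The largest fall there was that of s2f_0010101001. Its controls had 261, 228, 248, 246 and 126 CPM, with a further library of control 3 at 229, its MED libraries 98.6 to 184 CPM, and its HIGH libraries 141, 130.4, 138, 135 and 101 CPM. Control 5, at 126 CPM, lay among the exposed libraries, and the other controls were above all of them. The log2 fold change at HIGH was -0.76 (SE 0.172, adjusted p 0.028 by edgeR), and it passed the threshold in 9 of 17 alternative fits. The member that rose was s2f_0001408002, with 104 to 143 CPM at HIGH against 76.0 to 108 CPM in the controls, which overlap (0.48, SE 0.117, adjusted p 0.0468 by edgeR); it passed in 8 of 17 alternative fits.

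In trout embryos at the HIGH level of selenomethionine 2 members rose and 3 fell, next to 0.404% higher and 0.474% lower among 17312 identifiers. The member s2f_0010896001 had 40.9, 46.1, 46.9, 45.8 and 32.2 CPM in the controls, 53.2 to 65.4 CPM at LOW, 54.6 to 74.3 CPM at MED and 63.1, 55.8, 68.8 and 76.4 CPM at HIGH. Every exposed library was above every control. It was called at MED (log2 fold change 0.65, SE 0.104, adjusted p 0.0139 by edgeR) and at HIGH (0.62, SE 0.109, adjusted p 0.00355), and not at LOW. The member s2f_0002032004 had 55.1 to 69.5 CPM at HIGH against 37.6 to 48.3 CPM in the controls (0.58, SE 0.102, adjusted p 0.00355 by edgeR).

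The 3 members that fell in trout with selenomethionine were among the abundant ones, and their falls were small. The member s2f_0000677001, 1 of the 3 with the highest scores, had 5902 to 6969 CPM at HIGH against 7592 to 7856 CPM in the controls, without overlap (log2 fold change -0.27, SE 0.0601, adjusted p 0.0315 by edgeR). For s2f_0000018013 the values were 2512 to 2887 CPM at HIGH against 3194 to 3349 CPM in the controls (-0.30, SE 0.0587, adjusted p 0.00895). The other fall was that of s2f_0002163008 (-0.28, adjusted p 0.0363). With the 2 groups alone in the fit 0 of these falls passed, and DESeq2 called 6 members lower.

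The members named by the number of embryo tables that called them in 1 direction were s2f_0001058004 and s2f_0001058014 for rises and s2f_0005911002 and s2f_0010101001 for falls; each was called in that direction in 1 table outside benzo[a]pyrene. In trout embryos exposed to ethinylestradiol, s2f_0001058004 had 543, 399 and 287 CPM in the controls, 749.5, 727 and 671 CPM at MED and 598, 638 and 515 CPM at HIGH. The MED libraries were above every control, while 1 HIGH library lay within the control range. The log2 fold change at MED was 1.01 (SE 0.192, adjusted p 0.033 by edgeR) and at HIGH 0.74 (SE 0.192, adjusted p 0.0761). Its partner with the same leading digits, s2f_0001058014, had 149 to 263 CPM in the controls, 325 to 378 CPM at MED and 241 to 309.9 CPM at HIGH (0.97 at MED, SE 0.183, adjusted p 0.0317 by edgeR). Both calls held in 7 of 12 alternative fits.

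The same pair went the other way in minnow embryos at the HIGH level of lead. There s2f_0001058004 had 596 to 840.3 CPM at HIGH against 908 to 1226 CPM in the controls (log2 fold change -0.42, SE 0.11, adjusted p 0.0194 by edgeR), and s2f_0001058014 had 346 to 510.1 CPM against 542 to 713 CPM (-0.43, SE 0.105, adjusted p 0.014). These 2 members were the ones called in 2 embryo tables. In the trout ethinylestradiol table the members' share of all counts was 23.1% to 26.0% in the 3 controls. It was 26.0% to 29.0% at MED and 27.8% to 29.8% at HIGH. At HIGH 108 of 150 members had a positive fold change, and by edgeR 2 rose and 2 fell. The rises were those of s2f_0000014007 (0.63) and s2f_0001743002 (0.65), not of the pair above. The falls were those of s2f_0000600013 (-0.67) and s2f_0005968003 (-0.49). At MED s2f_0000600013 was also called lower (-0.81). The matching shares over all identifiers are not given here, so these counts are not read as results about the members. The HIGH libraries were above all controls in share; the part of a few abundant members in this was not tested.

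In clawed frog embryos exposed to trenbolone, s2f_0005911002 had 63.6, 79.7, 92.2, 69.2 and 66.1 CPM in the controls, 39.1, 19.0, 35.4, 42.0 and 26.2 CPM at MED and 64.7, 63.2, 52.7, 44.4 and 25.8 CPM at HIGH. All MED libraries were below all controls, and the HIGH libraries spread from the MED range into the control range. The log2 fold change at MED was -1.17 (SE 0.209, adjusted p 0.0227 by edgeR), the largest fall called in any embryo table outside benzo[a]pyrene, and at HIGH -0.52 (SE 0.204, adjusted p 0.388). It passed in 12 of 16 alternative fits. The fold change was larger at MED than at HIGH, and the difference between these levels was not tested.

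In the 42 embryo comparisons outside benzo[a]pyrene with fewer than 5 members called, 11 of 6300 member tests were called (0.175%), 5 higher and 6 lower, in 5 comparisons; the background over all identifiers was 0.181%. At an unadjusted p below 0.05 there were 10.1% of the member tests against 7.21% of all. The limit of fewer than 5 called members caps their share of calls in advance, so these shares are not read as results about the members. DESeq2 called 73 of these member tests and the replicate block 43. The shares over all identifiers in these alternative fits are not given here, so their counts are not read as results about the members. Leaving out 1 library moved the count between 4 and 40: it was 40 without minnow ethinylestradiol control A, and among trout ethinylestradiol libraries 5 without control A, 4 without control B, 25 without control C and 7 without HIGH library B.

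Benzo[a]pyrene comparisons share their controls with the rule, so they are given as a description, and nothing is read from their counts. In clawed frog at HIGH 19 members were called lower and 3 higher, with 9.05% lower and 11% higher over 15779 identifiers. The falls lay between -0.21 and -0.64, with a median of -0.41, and the rises between 0.47 and 0.91. The member s2f_0000917003 had 81.8 to 97.7 CPM in the controls, 54.2 to 90.4 CPM at MED and 53.8 to 68.9 CPM at HIGH, and s2f_0000164016 had 13.8 to 21.8 CPM, 16.6 to 23.3 CPM and 27.1 to 42.9 CPM at the same 3 levels. In the other 10 embryo benzo[a]pyrene comparisons 3 of 1500 member tests were called, against 0.524% of all.

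Comparing exposed levels with each other leaves those controls out of the contrast. They stayed in the fit and entered its filter, scaling and estimate of spread. Over the 4 embryo benzo[a]pyrene tables, HIGH against MED (level 81 against level 1 in trout) called 3 members, all in clawed frog, against a background of 0.837% of tests. The member s2f_0000164016 was higher at HIGH than at MED (log2 fold change 0.70, SE 0.15, adjusted p 0.0144 by edgeR), as was s2f_0000878007 (0.36, SE 0.0936, adjusted p 0.0411), and s2f_0003596004 was lower (-0.35, SE 0.077, adjusted p 0.0159). Without clawed frog HIGH library 4 the count was 1.

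In minnow embryos exposed to benzo[a]pyrene, where the controls are again those of the rule and the values are a description, s2f_0001408002 had 89.0, 72.0, 78.2, 78.3 and 85.5 CPM in the controls, 176, 149, 154, 171 and 176 CPM at MED and 177, 172, 173, 155 and 168 CPM at HIGH. MED and HIGH overlapped, and both were above every control. The log2 fold change was 1.0 at MED (SE 0.175) and 1.24 at HIGH (SE 0.176). In clawed frog it had 99.9 to 158 CPM in the controls, 152 to 180.0 CPM at MED and 169.7 to 242 CPM at HIGH, with a log2 fold change of 0.54 at HIGH (SE 0.117). Leopard frog embryos had a log2 fold change of 0.02 at HIGH (SE 0.113) and trout embryos -0.02 at level 81 (SE 0.0875). Whether the species differ in this response was not tested.

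In liver tables between 32 and 86 of the 150 members passed the filter on low counts, and the others could not be tested there. Outside benzo[a]pyrene 3 of 1444 member tests were called in 23 comparisons, all higher, against 0.114% of all tests. A member near 0 in control livers could pass the filter through an exposed group where it was high. The direction of these calls was therefore partly set by the filter and is not read as a result. In the 8 liver benzo[a]pyrene comparisons 0 of 416 member tests were called by edgeR, against 0.009% of all. By edgeR 50 of the 416 (12.02%) had an unadjusted p below 0.05, against 8.20% of all tests. The difference between these shares was not tested. DESeq2 called 1 of the 416, and its share over all identifiers is not given here.

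Of the 3 liver calls, 2 belong to s2f_0003596004 in early-life quail exposed to ethinylestradiol. It had 0.175, 0.631, 0.447, 0.0592 and 0.264 CPM in the controls, 12.9, 17.9, 12, 11.1 and 18.9 CPM at MED and 4.09, 50.5, 35.4, 6.80 and 43.4 CPM at HIGH. Every exposed liver was above every control, and the HIGH livers fell into 3 values above and 2 below the MED range. The log2 fold change was 5.49 at MED (SE 0.737, adjusted p 0.00107 by edgeR) and 6.48 at HIGH (SE 0.739, adjusted p 0.000181), and all 16 alternative fits called it at each level. In adult quail livers exposed to ethinylestradiol it had 2.24 to 105 CPM at HIGH against 0.925 to 10.7 CPM in the controls, which overlap (3.11, SE 0.89, adjusted p 0.257 by edgeR). In adult minnow livers the value was -0.19 (SE 0.84). For comparison, the embryo controls outside benzo[a]pyrene had 14.4 to 764 CPM of this member.

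The other liver call was s2f_0001055002 in adult minnow livers at the HIGH level of ethinylestradiol, with 1.57 to 7.86 CPM at HIGH against 0.0931 to 0.844 CPM in the controls, without overlap (log2 fold change 4.13, SE 0.753, adjusted p 0.0268 by edgeR). It passed in 9 of 15 alternative fits. LOW livers had 0.138 to 2.97 CPM and MED livers 0.335 to 1.74 CPM, and both overlapped the controls. Its level in minnow embryo controls outside benzo[a]pyrene was 136 to 394 CPM, so the exposed livers stayed far below the embryos. For some other members, 1 library of this HIGH group held most counts of the group. It had 358 of 358 counts for s2f_0000164016, 31 of 36 for s2f_0010127001 and 40 of 45 for s2f_0017147001. For s2f_0010896001 no library had more than 3 of 6 counts. The call of s2f_0001055002 was kept without any 1 of the HIGH libraries. It was lost without control B, C, E or SALT4, with the 2 groups alone and with the replicate block. All members named in this and the preceding paragraph, and s2f_0001408002, were picked after their values were seen.

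**Figure D4:**
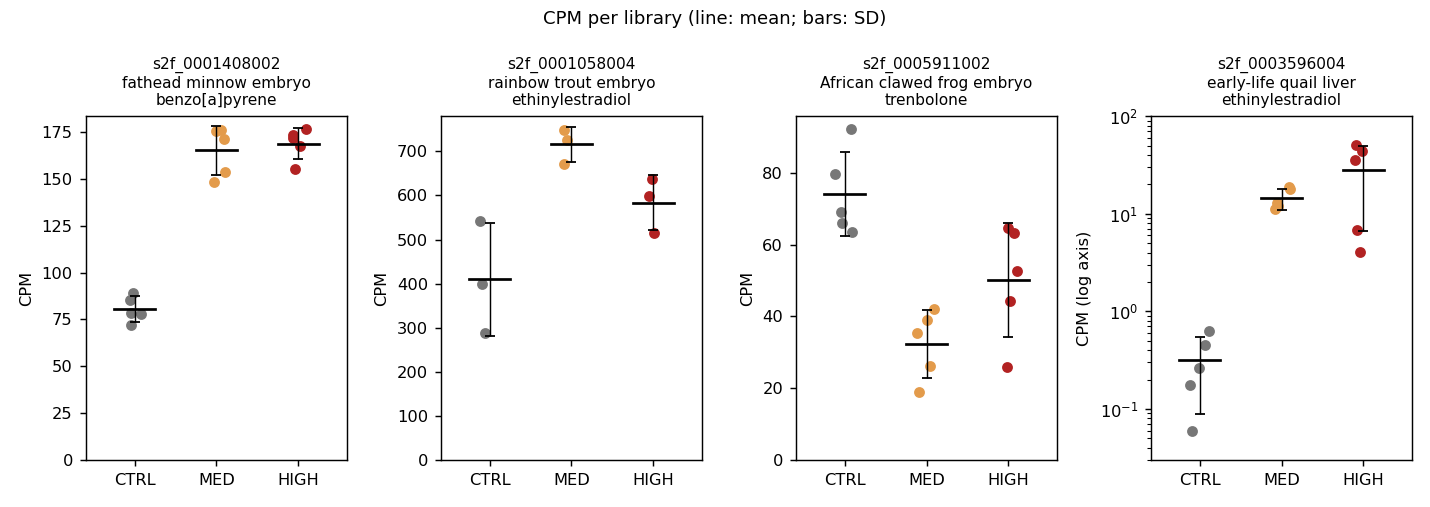
CPM per library at CTRL, MED and HIGH (points; line, mean; bars, SD) for 4 members, 1 panel each, with a log axis for the quail liver panel. In minnow embryos s2f_0001408002 lies at 149 CPM or more in all exposed libraries and below 90 CPM in controls, and in early-life quail livers s2f_0003596004 lies above 4 CPM in all exposed libraries and below 1 CPM in controls.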

How the data were processed

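The authors deposited whole-number counts in separate tables for each chemical, species and life stage. Column kits were used for the RNA and Illumina NovaSeq or HiSeq instruments for paired-end sequencing, per the labels' protocols. Aligner, counter, strand and the reference that defines the identifiers: not given in the sources used here. Totals of 4066220 to 69838406 counts per library set the precision; a member at 0.1 CPM rests on a few counts. The 39 tables with labelled controls were used; 10 tables without one were left out, but 1 of them (quail lead labelled early-life) served the check of repeated libraries. There were 52 per-sample columns that match no sample and were not used. Groups follow the labelled level. In the leopard frog and clawed frog benzo[a]pyrene and the minnow hexabromocyclododecane tables, titles carry other letters than the level label. The trout benzo[a]pyrene controls carry S in some titles and C in others, and all were used together as controls. Clawed frog lead controls 3 and 3.1 differed by little more than sampling noise (a chi-square of 1.3 for each degree of freedom, against 2.77 for the next closest pair) and were summed into 1 library in the fits. Levels, shares and counts of libraries kept them as separate libraries.

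Counts were tested with edgeR 4.0.16 (glmQLFit and glmQLFTest, TMM scaling, filterByExpr with a minimum count of 10 and a minimum total of 15) in R 4.3.3. All levels of a table were in 1 fit, except the numbered levels of the minnow embryo ethinylestradiol and fluoxetine tables. Those levels were left out and not tested. Benjamini-Hochberg adjustment ran over all identifiers, with a threshold of 0.05. DESeq2 1.42.0 was an alternative. Tissue and stage contrasts used 1 sum of controls per table, with 0 where a table does not list an identifier; 10 liver tables lacked up to 10 members. The scripts were tested on simulated data with 200 changed identifiers. Other alternatives were RLE size factors, no filter, the 2 groups alone, the replicate block and each library left out; library totals and listed identifiers only were added after seeing the data. Same-numbered libraries were taken as paired where every pair's deviations correlated above 0.1, which held in 6 of 91 comparisons. In minnow lead HIGH, the 1 of these with calls, the replicate block called 58 lower and 9 higher. The shares over all identifiers with this block are not given here.

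The members and lists were chosen with earlier results of these data known. Named members were the 3 with the highest score and ranks 150 and 151 for levels, and for changes at most 2 that rose and 2 that fell, called in the most embryo tables outside benzo[a]pyrene with ties to the larger fold change; other named members were picked after their values were seen.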

Additional observations from a re-analysis of the deposited data

Results flagged for a closer look

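Among 37 control groups examined for the members' share of counts and 64 sets of values of named members, 9 had a library far from the rest of its group by Dixon's gap test, which flags about 1 group in 20 by chance. For the share of counts these were adult minnow trenbolone control C at 0.0723%, adult quail ethinylestradiol control 1 at 0.0723%, early-life quail ethinylestradiol control 3 at 0.1%, and clawed frog selenomethionine control 5 at 8.82%. For single members in minnow embryos at HIGH lead these were library B for s2f_0000011018 at 36 CPM and library E for s2f_0001058014 at 346 CPM. In clawed frog these were benzo[a]pyrene HIGH library 5 for s2f_0000917003 at 68.9 CPM, and for s2f_0010101001 in the lead table HIGH library 5 at 101 CPM and control 5 at 126 CPM.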

How the results depend on the processing

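No change of a named member reversed in these alternatives: of 531 values under alternatives, 445 kept direction and call and 86 kept direction but lost the call. The set kept 140 members with TMM-scaled CPM, 113 and 114 with constants of 0.1 and 5, 122 with medians, and 130 to 150 without 1 library (130 without cormorant control 2). Minnow embryo against liver gave 144 to 150 under the alternatives run (145 to 148 without 1 table). For the quail stages, a fit without an adult table holds 1 adult sum, so its counts of calls are not read as results. Quail stages gave 51 higher and 7 lower with library totals, 7 lower with single libraries, and 15 to 28 higher and 10 to 17 lower without 1 table (15 without adult ethinylestradiol, 10 without early-life trenbolone).

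With the replicate block, minnow lead HIGH gave 9 higher and 58 lower, clawed frog lead HIGH 9 lower, clawed frog benzo[a]pyrene HIGH 5 higher, and the pooled embryo comparisons 43; of these, libraries count as paired in minnow lead HIGH, and another 5 paired comparisons had 0 members called with or without the block. Without 1 library, minnow lead gave 2 to 3 higher (2 without control A, B, C or F or HIGH B or F) and 29 to 36 lower, trout selenomethionine 2 to 4 higher (4 without HIGH C) and 1 to 5 lower (1 without control A, C or E or HIGH B or C, 5 without HIGH D), clawed frog lead 0 to 1 higher and 1 to 6 lower, and clawed frog benzo[a]pyrene 3 to 4 higher and 18 to 23 lower. With the 2 groups alone, trout selenomethionine gave 0 lower, clawed frog lead 0 higher, the pooled embryo comparisons 28 and the other benzo[a]pyrene comparisons 13. DESeq2 gave 6 lower in trout selenomethionine, 5 higher in clawed frog benzo[a]pyrene, 73 in the pooled embryo comparisons, 12 in the other benzo[a]pyrene comparisons, 7 in livers outside benzo[a]pyrene, 1 in livers with benzo[a]pyrene and 6 between benzo[a]pyrene levels. Library totals gave 0 higher and 2 lower in clawed frog lead, 5 higher in clawed frog benzo[a]pyrene, 26 in the pooled embryo comparisons and 9 in livers; no filter gave 40 in the pooled embryo comparisons. Without 1 library the pooled embryo comparisons gave 4 to 40, the other benzo[a]pyrene comparisons 2 to 9 (9 and 6 without minnow HIGH A and E, 6 without clawed frog MED 5), livers 2 to 6 (5, 5 and 6 without adult minnow ethinylestradiol HIGH B, C and E), livers with benzo[a]pyrene 0 to 0, and benzo[a]pyrene levels 1 to 4. Shares over all identifiers under these alternatives are not given here, so the counts are not read as results about the members. The cause was not tested. Low liver counts limit what can be seen of the members there.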
